A study of Mus musculus with 2 samples.

Results

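The 44 collagen chain genes of the mouse were examined in cardiac neural crest cells that lacked Adam19 and in cells that carried it. A gene was a member when its symbol was Col, a number, the letter a and a number, with nothing after it, and when a transcript cluster of the array was annotated to that gene alone. By this rule 44 of 19938 measured genes were members, read by 46 transcript clusters, and the gene's brightest cluster stood for it. All 44 collagen symbols of the RefSeq gene table were among them.

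RNA came from E14.5 embryonic hearts of C57BL/6 background. The Adam19-/- sample had the genotype Adam19-/-; Wnt1-Cre; R26tdTomato/+ and the Adam19+/+ sample the genotype Adam19+/+; Wnt1-Cre; R26tdTomato/+, so both carried the Cre transgene and 1 copy of the reporter. Wnt1-Cre acts in the early neural crest, and tdTomato-positive cells sorted from collagenase-digested hearts were taken as its descendants. Each genotype had 1 Affymetrix Mouse Gene 1.0 ST array, and how many embryos gave a sample is not stated in the sources used here. Every difference is therefore one between 2 samples, with no replicate check and no test.

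Collagens are extracellular proteins in which α chains with a repeating glycine motif wind into a triple helix. Fibrillar collagens give tissue its tensile strength, network collagens form sheets such as basement membranes, and fibril-associated collagens with interrupted helices (FACITs) sit on the surface of fibrils. The remaining members include the beaded filaments of collagen VI, transmembrane chains, the anchoring fibril chain and the multiplexins of basement membrane zones. In the heart, neural crest descendants build the wall of the great arteries and part of the outflow valves, both of which are rich in fibrillar collagen, and arterial smooth muscle also makes basement membrane collagen. Collagens II, IX and XI together form the thin fibrils of cartilage, and some of them are also made in developing valves.

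Values are log2 signals as deposited, and differences are Adam19-/- minus Adam19+/+ on that log2 scale. The median gene had a mean signal of 8.01, used here as a floor, and 10122 genes exceeded it in 1 or both samples. Adam19, a membrane-anchored metalloprotease gene, was at 9.77 in Adam19-/- against 11.62 in Adam19+/+ cells, the largest decrease of all genes above the floor, and the direction is that of the labels. Whether its probes lie within the deleted part is not stated in the sources used here. Markers of the cell types expected from cardiac neural crest were above the floor in all 10 of the valve and fibrous mesenchyme list, all 10 of the smooth muscle list, all 8 measured of the autonomic neuron list and 7 of 8 measured of the glial list. None of the 4 measured osteoblast markers was above it. For comparison with the counts that follow, 65.2% of the 10122 genes past the floor had their larger deposited value in Adam19-/- cells. The median difference of those genes was 0.04. Of the valve and fibrous mesenchyme markers 8 of 10 were higher in Adam19-/- cells, with a median difference of 0.15, led by Tcf21 at 0.57 and Scx at 0.42. Of the autonomic neuron markers 5 of 8 were higher as deposited and 6 after quantile normalisation, with a median of 0.12 as deposited. The deposited count, 62.5%, did not exceed the 65.2% of all genes past the floor. Of the glial markers 7 of 8 were lower, with a median of -0.12. All 12 leukocyte markers were higher in Adam19-/- cells, or 11 of 12 after removal of a lowess curve on signal. Their summed linear signal was 2956 in Adam19-/- against 2229 in Adam19+/+ cells. Just 4 of the 12 were above the floor, and 2 of them on both arrays. All 3 measured Y-linked genes were lower, with a median of -1.42, and ranked 2nd, 3rd and 4th by decrease among genes above the floor. A difference in the sex of the embryos between the samples cannot be told apart from genotype with 1 array each. Cardiomyocyte markers had a summed linear signal of 10039 in Adam19-/- and 9519 in Adam19+/+ cells, with 8 of 12 higher and a ratio of 1.05. Their median difference was 0.12, led by Myl7 at 0.78 and Pln at 0.54, while the brightest, Actc1 and Tnnt2, differed by 0.09 and -0.10. Endothelial markers summed to 5232 in Adam19-/- and 5114 in Adam19+/+ cells, with 6 of 10 higher as deposited, or 7 after quantile normalisation or removal of the lowess curve, and a ratio of 1.02. Over all 19938 genes 51.7% were higher, the summed ratio was 1.02 and the median difference 0.01. The endothelial sum lay near that ratio, but the median difference of the endothelial list was 0.16, led by Nfatc1 at 0.49. Npr3, the brightest endothelial marker, was lower, at 11.16 in Adam19-/- against 11.28 in Adam19+/+ cells. Counting only markers past the floor, 4 of 7 endothelial (57.1%) and 6 of 10 cardiomyocyte markers (60%) were higher as deposited. Both shares lay under 65.2%, while the medians of these markers, 0.11 and 0.13, exceeded 0.04. No marker of these lists stood at the table's lowest value. The part of these cell types in the collagen differences was not tested, and in sorted bulk RNA fewer cells of a type and less RNA per cell cannot be told apart.

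Collagen transcripts differed little between the samples, and by about as much as other genes. Above the floor, the median size of a difference was 0.07 for collagen chains and 0.07 for all genes. Of the 44 members 27 were above the floor, and of these 15 were lower and 12 higher in Adam19-/- cells, and the median difference was -0.01. Of the collagen chains 44.4% were higher and 55.6% lower, against 65.2% and 33.7% of all 10122 genes above the floor, whose median difference was 0.04. That background split depended on scaling, since 5610 genes were higher and 4489 lower after quantile normalisation, and 5092 and 5030 after removal of a lowess curve. Under the same settings 11 collagen chains were higher and 17 lower of 28, and 11 higher and 16 lower of 27. The sum of the linear signals over all 44 members was 42168 in Adam19-/- cells, against 42069 in Adam19+/+ cells, a ratio of 1.00.

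Just 2 chains, Col9a1 and Col2a1, were at least 1.2-fold higher, which is 7.41% of the 27 beside 4.06% of all genes above the floor. None was at least 1.2-fold lower, beside 1.13% of all genes. At 1.5-fold no member was counted in either direction, where 0.148% of all genes were higher and 0.0889% lower. All 27 lay above the floor on both arrays, so none entered through 1 genotype. The central 95% of all differences above the floor ran from -0.20 to 0.30, and 26 of the 27 members lay within it, Col9a1 being the exception. As a scale for disagreement between probes, 2 clusters of a gene, both above the floor, were compared by their differences between the arrays. These lay a median of 0.05 apart over 583 genes, with a 95th percentile of 0.24. That gap holds no variation between embryos.

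**Figure D1:**
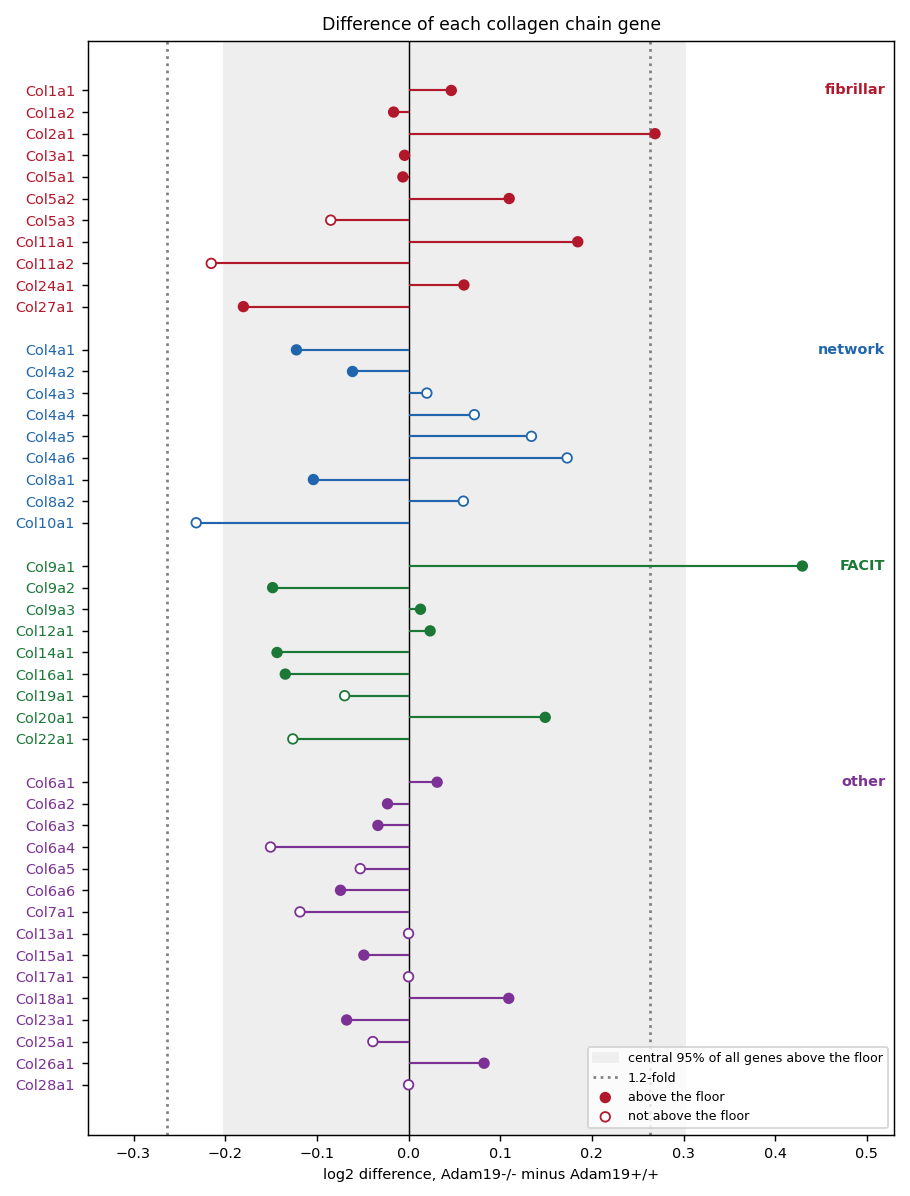
Log2 difference of signal, Adam19-/- minus Adam19+/+ (x axis), for each of the 44 collagen chain genes, grouped by class, with filled points for the 27 members above the floor and open points for the other 17. The grey band is the central 95% of all genes above the floor, -0.20 to 0.30, and the dotted lines mark 1.2-fold; Col9a1 at 0.43 lies outside the band and Col2a1 at 0.27 inside it.

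Collagen IX showed the widest split among its chains, and the sequences before the annotated starts of Col9a1 and Col9a2 are given here. They are shown because Col9a1, which had the largest difference of any member, has a pair of starts that the array value does not separate. The windows are the 250 bases before a start in the RefSeq table, build GRCm38.p6, plus strand, and both genes were matched by symbol. The first Col9a1 start, 17593 bases upstream of the second, gives the window chr1:24177360-24177609, the second gives chr1:24194953-24195202, inside the gene, and Col9a2 gives chr4:121039316-121039565. Capitals mark matches, on either strand, to AACAAT (the core letters bound by SOX factors), to CCAAT (the box bound by nuclear factor Y), to GGGCGG (the GC box) or to TATAAA.
Col9a1 first start: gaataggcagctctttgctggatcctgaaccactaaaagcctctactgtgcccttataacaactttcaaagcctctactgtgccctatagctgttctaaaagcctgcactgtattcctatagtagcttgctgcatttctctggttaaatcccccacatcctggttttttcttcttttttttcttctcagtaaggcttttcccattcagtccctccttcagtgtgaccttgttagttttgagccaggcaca
Col9a1 second start: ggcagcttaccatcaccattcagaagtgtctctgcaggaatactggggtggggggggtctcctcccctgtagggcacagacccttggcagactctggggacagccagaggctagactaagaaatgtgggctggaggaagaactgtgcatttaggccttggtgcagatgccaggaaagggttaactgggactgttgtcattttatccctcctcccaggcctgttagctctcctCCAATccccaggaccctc
Col9a2: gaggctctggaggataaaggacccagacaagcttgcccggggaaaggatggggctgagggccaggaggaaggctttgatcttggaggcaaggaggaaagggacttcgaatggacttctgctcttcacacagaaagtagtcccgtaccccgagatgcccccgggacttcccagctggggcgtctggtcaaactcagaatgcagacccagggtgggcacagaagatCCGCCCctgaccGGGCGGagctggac

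The Col9a1 first window held none of these motifs and was 43.6% G or C, its second window held 1 CCAAT, beginning at position -18 from the start, and was 56.0% G or C, and the Col9a2 window held 2 GGGCGG, beginning at positions -26 and -14, and was 60.4% G or C. No match overlapped another in these windows. Promoters were in the table for 35 of the 44 members, as 38 windows, and Col9a3 was not among them. AACAAT was in 1 of the 38, that of Col3a1, against 9.42% of all 32851 windows. GGGCGG was in 22 of the 38 or 57.9%, against 32.7% of all windows, whereas CCAAT was in 13 or 34.2% against 33.8%, and TATAAA in 5 or 13.2% against 12.4%. These matches describe the letters alone and say nothing of factor binding.

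The signals within a class ran from dim to bright, and the brightest network chain was dimmer than the brightest of the other classes. Each gene is read by its own probes, so these signals do not order the transcripts by abundance. On the Adam19-/- array the 11 fibrillar chains ran from 7.10 to 12.82 with a median of 9.21, against 7.32 to 12.77 and a median of 8.99 on the Adam19+/+ array. The 9 network chains ran from 6.60 to 9.73 with a median of 7.81 in Adam19-/- cells, and from 6.52 to 9.82 with a median of 7.75 in Adam19+/+ cells. FACIT chains, 9 in number, ran from 6.44 to 11.80 in Adam19-/- cells with a median of 8.63, against 6.51 to 11.78 with a median of 8.62 in Adam19+/+ cells. The 15 other chains had a median of 8.57 in Adam19-/- and 8.64 in Adam19+/+ cells. Above the floor were 9 fibrillar, 3 network, 7 FACIT and 8 other chains. Of the 17 chains not above it, 5 were higher, 9 lower and 3 equal, with differences from -0.23 to 0.17.

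**Figure D2:**
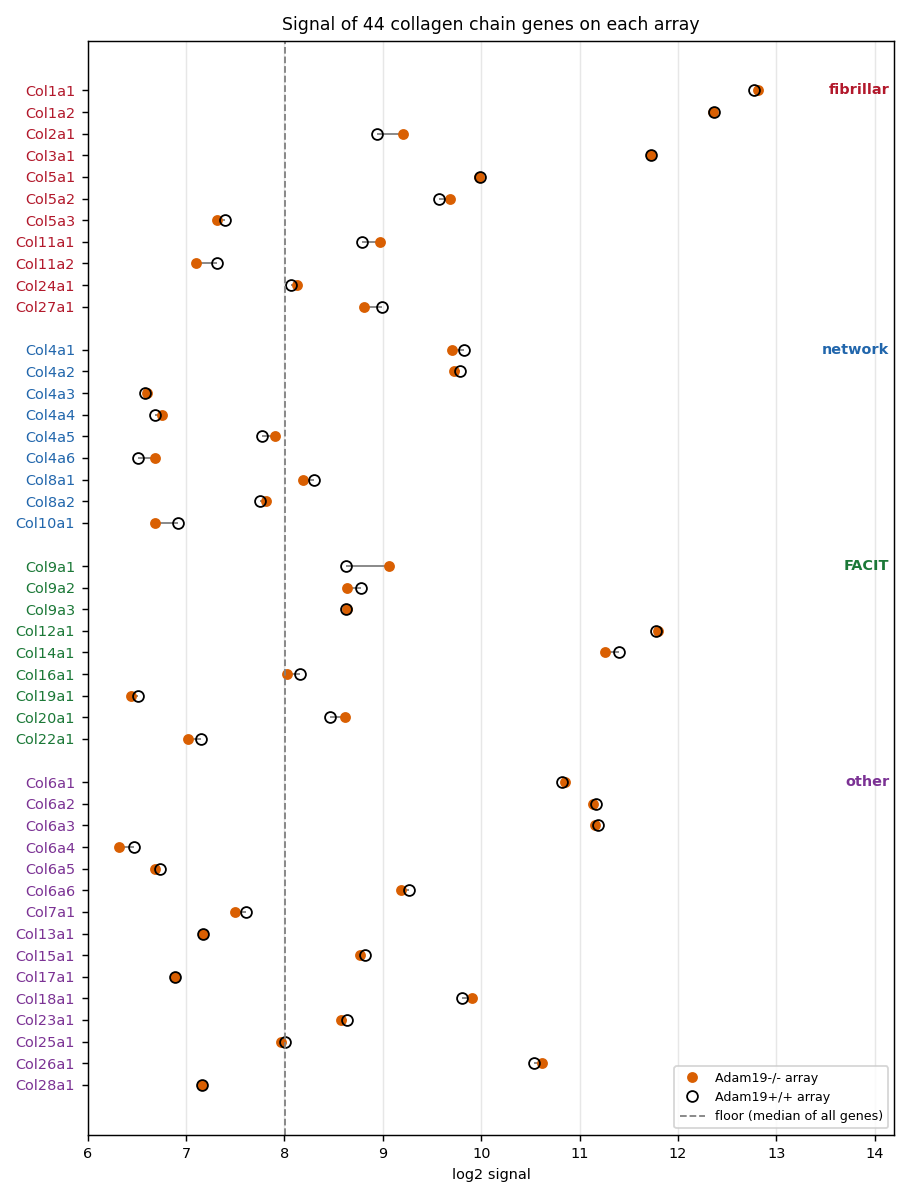
Log2 signal (x axis) of each collagen chain gene on the Adam19-/- array (filled orange) and on the Adam19+/+ array (open black), grouped by class, with a dashed line at the floor of 8.01. The points of most chains lie nearly on top of each other, and the widest gap is that of Col9a1, at 9.06 in Adam19-/- against 8.63 in Adam19+/+ cells.

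The fibrillar chains of fibrous tissue were nearly equal on both arrays. Col1a1, the main chain of collagen I, was at 12.82 in Adam19-/- against 12.77 in Adam19+/+ cells, differing by 0.05 (1.03-fold). Its partner Col1a2 was at 12.35 in Adam19-/- against 12.37 in Adam19+/+ cells, differing by -0.02. Col3a1, which forms the homotrimer collagen III of vessel walls, was at 11.72 in Adam19-/- against 11.73 in Adam19+/+ cells. These are the most abundant collagens of arteries and valves by general knowledge, and none of the 3 chains differed by more than 0.05.

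Collagen V is a minor component that sits inside collagen I fibrils and limits their width. Col5a1 was at 9.98 in Adam19-/- against 9.99 in Adam19+/+ cells. Col5a2 was at 9.68 in Adam19-/- against 9.57 in Adam19+/+ cells, differing by 0.11 (1.08-fold). Col5a3, the chain found in part of collagen V, was below the floor, at 7.31 in Adam19-/- against 7.40 in Adam19+/+ cells. Among the fibrillar chains known less well, Col24a1 differed by 0.06. Col27a1, expressed in cartilage among other tissues, was the lowest of the 27 members by difference, at 8.81 in Adam19-/- against 8.99 in Adam19+/+ cells, differing by -0.18 (1.13-fold lower), and ranked 315th by decrease among the 10122 genes. The 9 fibrillar chains above the floor split into 5 higher and 4 lower around a median of 0.05, and over all 11 the median was -0.004.

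In the deposited values, cartilage collagens held the 5 differences of greatest size among the 44 chains, in both directions. That order depended on scaling. After quantile normalisation, centring or removal of the lowess curve Col27a1 exceeded Col11a1 in size, at -0.21, -0.19 and -0.24 against 0.16, 0.18 and 0.13. After removal of the lowess curve only Col9a1 was larger in size than Col27a1, and Col2a1 was at 0.21. Col4a6, Col16a1, Col4a1 and Col14a1 also exceeded Col11a1 in size after quantile normalisation or removal of the lowess curve, Col4a6 at 0.19 and 0.18. Col9a1 was at 9.06 in Adam19-/- against 8.63 in Adam19+/+ cells, differing by 0.43 (1.35-fold), and ranked 68th by increase among the 10122 genes. Col2a1, the only chain of collagen II, was at 9.21 in Adam19-/- against 8.94 in Adam19+/+ cells, differing by 0.27 and ranked 381st. Col11a1, whose protein nucleates the cartilage fibril, was at 8.97 in Adam19-/- against 8.78 in Adam19+/+ cells, differing by 0.18 (1.14-fold). The partner chains of collagen IX were lower or nearly equal. Col9a2 was at 8.63 in Adam19-/- against 8.78 in Adam19+/+ cells, differing by -0.15 (1.11-fold lower), and Col9a3 differed by 0.01, which became -0.03 after quantile normalisation and -0.04 after removal of the lowess curve.

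The 2 remaining cartilage chains were dim. Col11a2 was at 7.10 in Adam19-/- against 7.32 in Adam19+/+ cells, differing by -0.22. Col10a1, the network collagen of hypertrophic cartilage, was at 6.69 in Adam19-/- against 6.92 in Adam19+/+ cells, differing by -0.23, the most negative of all 44 as deposited. The 5 cartilage chains above the floor split into 4 higher and 1 lower around a median of 0.18, beside 65.2% higher of all genes above the floor. After quantile normalisation they split into 3 higher and 2 lower around 0.16. Over all 7 the median was 0.01. These 7 are the chains of collagens II, IX, X and XI and leave out Col27a1, also expressed in cartilage, which was lower by 0.18. Col9a1 stayed past the 1.2-fold mark under the 5 other ways of scaling or summarising, between 0.37 and 0.43, though it is not among the chains above a floor at the 75th percentile, and Col2a1 was at 0.24 after quantile normalisation, 0.26 after centring on the median of all genes, 0.21 after removal of the lowess curve and 0.25 with 32 added to the linear signal, all under the mark of 0.263.

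**Figure D3:**
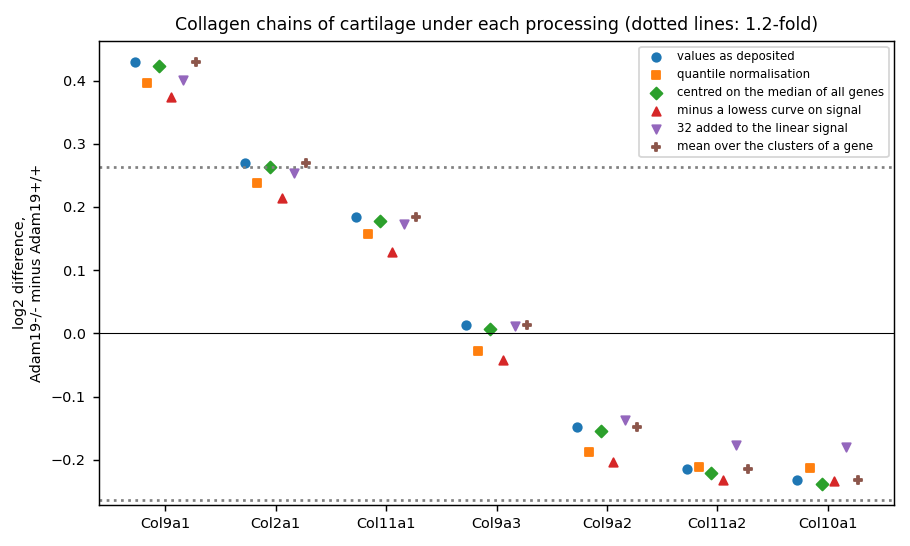
Log2 difference, Adam19-/- minus Adam19+/+ (y axis), of the 7 collagen chain genes of cartilage under the deposited values and 5 other ways of processing, with dotted lines at 1.2-fold. Col9a1, Col2a1 and Col11a1 stay above 0, Col9a2, Col11a2 and Col10a1 stay below it, and Col9a3 lies on both sides.

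Cartilage genes that are not collagens also differed in both directions. Of 14 in the list, all measured, 8 were above the floor. Matn1, Matn3, Matn4, Comp, Snorc and Ucma were not, with signals from 5.13 to 7.62 in Adam19-/- and 5.18 to 7.62 in Adam19+/+ cells. The 8 split into 6 higher and 2 lower around a median of 0.18, beside 65.2% higher of all genes above the floor. After removal of the lowess curve they split into 5 higher and 3 lower around 0.12. Epyc, a small proteoglycan of cartilage, was at 8.18 in Adam19-/- against 7.54 in Adam19+/+ cells, the second of which is below the floor, and Hapln1, which links proteoglycans to hyaluronan, at 9.30 in Adam19-/- against 8.72 in Adam19+/+ cells. Sox9, the transcription factor that acts on Col2a1, Col9a1 and Col11a2 in chondrocytes, was at 11.23 in Adam19-/- against 10.65 in Adam19+/+ cells, differing by 0.57. Acan, the main cartilage proteoglycan, was lower, at 9.63 in Adam19-/- against 9.93 in Adam19+/+ cells. The summed linear signal of the 14 was 8955 in Adam19-/- and 8239 in Adam19+/+ cells, and that of the 7 cartilage collagens was 2659 in Adam19-/- and 2441 in Adam19+/+ cells. None of the 14 stood at the table's lowest value. The part of cartilage cells in these collagen differences was not tested.

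Of the 6 FACITs outside cartilage, Col12a1 and Col20a1 were higher and the other 4 lower. Col12a1, which coats collagen I fibrils in dense connective tissue, was at 11.80 in Adam19-/- against 11.78 in Adam19+/+ cells, differing by 0.02. Col14a1, a related fibril coat chain, was at 11.25 in Adam19-/- against 11.40 in Adam19+/+ cells, differing by -0.14 (1.10-fold lower). Col16a1 was just above the floor on both arrays, at 8.02 in Adam19-/- against 8.16 in Adam19+/+ cells. Col20a1 was at 8.61 in Adam19-/- against 8.46 in Adam19+/+ cells, differing by 0.15. Col19a1 and Col22a1 were below the floor and differed by -0.07 and -0.13. The 7 FACITs above the floor split into 4 higher and 3 lower around a median of 0.01, with Col9a3 on the other side after quantile normalisation or removal of the lowess curve, and all 9 into 4 higher and 5 lower around -0.07.

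The network chains above the floor were all lower by small amounts, and those below it mostly higher. Col4a1 and Col4a2 form the collagen IV found in most basement membranes. Col4a1 was at 9.70 in Adam19-/- against 9.82 in Adam19+/+ cells, differing by -0.12 (1.09-fold lower). Col4a2 was at 9.73 in Adam19-/- against 9.79 in Adam19+/+ cells, differing by -0.06. Col8a1, a short-chain collagen of vessel walls, was at 8.19 in Adam19-/- against 8.30 in Adam19+/+ cells, differing by -0.10. The median of these 3 was -0.10.

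The minor collagen IV chains, found in specialised membranes such as that of the kidney glomerulus, were all dim and all on the positive side. Col4a3 differed by 0.02, Col4a4 by 0.07, Col4a5 by 0.13 and Col4a6 by 0.17. Their signals were between 6.60 and 7.90 in Adam19-/- cells, against 6.52 to 7.77 in Adam19+/+ cells. Col4a5 and Col4a6 lie on the X chromosome, and the part of embryo sex in their differences was not tested. Col8a2, the partner of Col8a1, differed by 0.06. With Col10a1 the 9 network chains came to 5 higher and 4 lower, so their median was 0.02 with no floor. The signs of the 9 did not change under the other ways of scaling. Differences of dim genes scattered more widely, with a central 95% from -0.28 to 0.35 over the 9816 genes not above the floor.

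Smooth muscle genes were lower on the same array as the brighter network chains. All 10 in the list were measured, above the floor and lower, with a median of -0.14. Of all genes above the floor 33.7% were lower. Itga8, an integrin subunit, and Kcnmb1, a potassium channel subunit, had the largest differences, -0.41 and -0.27. The summed linear signal of the 10 was 31339 in Adam19-/- and 34414 in Adam19+/+ cells, a ratio of 0.911, beside a ratio of 0.969 for the 6 collagen IV chains. The glial list was lower to a similar degree, in 7 of 8 markers and with a summed ratio of 0.919. The part of smooth muscle or glia in the network chains' differences was not tested.

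Collagen VI, the beaded filament that links cells to fibrils, was bright and nearly equal. Col6a1 was at 10.85 in Adam19-/- against 10.82 in Adam19+/+ cells. Col6a2 was at 11.14 in Adam19-/- against 11.16 in Adam19+/+ cells. Col6a3 was at 11.16 in Adam19-/- against 11.19 in Adam19+/+ cells. These 3 chains make up the common form of collagen VI, and their differences were 0.03, -0.02 and -0.03. The later discovered chain genes lie side by side on chromosome 9, where Col6a6 differed by -0.07, and Col6a4 and Col6a5, both below the floor, by -0.15 and -0.05. For the 2 members with a second cluster, the values were -0.05 in both clusters of Col6a5, and -0.07 and -0.18 in those of Col6a6.

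Of the chains outside the main classes, the multiplexins split in sign. Col18a1, whose C-terminal fragment is endostatin, was at 9.91 in Adam19-/- against 9.80 in Adam19+/+ cells, differing by 0.11 (1.08-fold). Col15a1, the related multiplexin, was at 8.77 in Adam19-/- against 8.82 in Adam19+/+ cells. Col26a1 was at 10.61 in Adam19-/- against 10.53 in Adam19+/+ cells, differing by 0.08. The transmembrane chain Col23a1 differed by -0.07 and is the only member within 20 Mb of Adam19. Col25a1, another transmembrane chain, differed by -0.04 just below the floor. Col7a1, the anchoring fibril chain of skin, was dim and differed by -0.12, and Col13a1, Col17a1 and Col28a1 had exactly equal values on both arrays, at 7.17, 6.89 and 7.16, as did 27.7% of all genes not above the floor.

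**Figure D4:**
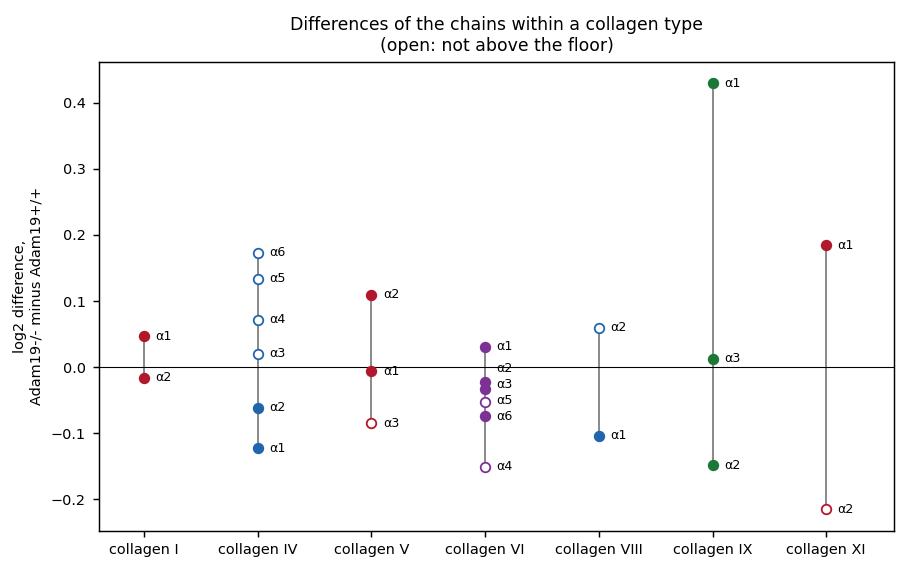
Log2 difference, Adam19-/- minus Adam19+/+ (y axis), of every measured chain of the 7 collagen types that have more than 1 chain gene, with open points for chains not above the floor. Collagen I spans 0.06, while collagen IX spans 0.58 and collagen XI 0.40.

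Differences were also set side by side for chains of a collagen type and for chains whose genes adjoin. The chains of collagen I lay 0.06 apart, those of collagen VIII 0.16, those of collagen VI 0.18, those of collagen V 0.19 and those of collagen IV 0.30, whereas those of collagen XI lay 0.40 and those of collagen IX 0.58 apart. By gene order, 8 pairs of members are next to each other among protein-coding genes. Col4a1 and Col4a2, which start on opposite strands and overlap by 22 bases at their annotated starts, lay 0.06 apart. Col4a5 and Col4a6, with 1342 bases between their starts, lay 0.04 apart, and Col4a3 and Col4a4 0.05. Col6a1 and Col6a2 lay 0.05 apart, Col6a5 and Col6a6 0.02, and Col6a4 and Col6a5 0.10. Col9a1 and its neighbour Col19a1 lay 0.50 apart, and Col3a1 and Col5a2 0.11. Gaps between genes that do not adjoin were not computed, so these values do not show that adjoining chains are alike.

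**Figure D5:**
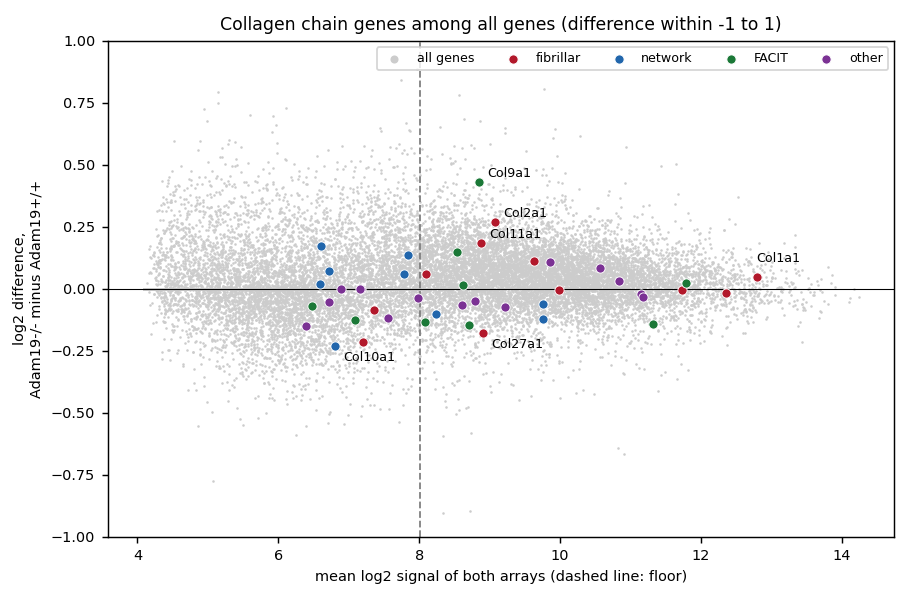
Log2 difference, Adam19-/- minus Adam19+/+ (y axis), against the mean log2 signal of both arrays (x axis) for all genes in grey, except 4 beyond 1 in size, and for collagen chain genes coloured by class. The scatter of the grey points narrows with signal, and collagen chains lie within it, with Col9a1 near its upper edge.

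Genes that modify, process or bind collagen were measured as the rest of the pathway, and none above the floor differed by 1.2-fold. Of 16 genes for chain hydroxylation, glycosylation and folding, 15 were above the floor and split into 7 higher and 8 lower around a median of -0.01, or 6 and 9 after removal of the lowess curve. P4ha2, a subunit of prolyl 4-hydroxylase, was at 9.30 in Adam19-/- against 9.13 in Adam19+/+ cells, and Plod1, a lysyl hydroxylase, at 11.78 in Adam19-/- against 11.66 in Adam19+/+ cells. Of 13 measured genes for procollagen secretion, propeptide removal and cross-linking, 8 were above the floor and split into 3 higher and 5 lower around a median of -0.06. Lox, which cross-links collagen and elastin, was at 12.25 in Adam19-/- against 12.48 in Adam19+/+ cells, differing by -0.23, and Adamts14, which removes amino-terminal propeptides, differed by -0.20. Of 9 measured collagen receptor genes, 7 were above the floor and split into 5 higher and 2 lower around a median of 0.06, led by the integrin subunits Itga2 at 0.15 and Itga11 at -0.14.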

How the data were processed

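RNA of sorted cells was measured on 2 Affymetrix Mouse Gene 1.0 ST arrays, 1 per genotype. The authors deposited log2 signals for 28853 transcript clusters; their background correction, normalisation, summary of probes and log base are not stated in the sources used here. As natural logs the highest value would stand for a signal of 2.02e+06, above a 16-bit scanner's 65535, and as log2 for 23484. The number of arrays limits the precision.

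Names came from the platform annotation, updated by Entrez identifier with a RefSeq table of GRCm38.p6 (21698 clusters matched), and 21789 had 1 symbol, 1621 several and 5443 none listed. No test was made, since each genotype has 1 array. Members above the floor that differed by 1.2-fold, and chains of collagens I, III, IV, V and VI, are given in full, with the 2 largest differences of each marker or pathway list where cited. Other genes, Acan and the Y-linked list among them, were chosen after their values were seen, as were the windows shown. The members and lists were chosen with earlier results of these data known. Some listed genes are not analysed here. Promoters come from RefSeq. Alternatives were quantile normalisation, centring, removal of a lowess curve (fraction 0.3), an offset of 32, the mean over clusters, and other floors. Steps were tested on simulated data (Python 3.11.15, numpy 2.4.6, pandas 2.3.3, statsmodels 0.14.6, matplotlib 3.10.9).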

Additional observations from a re-analysis of the deposited data

How the results depend on the processing

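With 1 array per genotype, no alternative tests variation between embryos. No paired analysis was possible because each group has 1 sample. A value was taken as moved when it shifted by at least 0.055 on the log2 scale. That is the median gap between 2 clusters of a gene, both above the floor, and it was applied to dim chains too. The number of chains at least 1.2-fold higher was 1 in place of 2 under quantile normalisation, centring, removal of the lowess curve and the offset of 32, and 0 with the floor at the 75th percentile, which left 13 chains and neither Col9a1 nor Col2a1. The count at least 1.2-fold lower was 0 under all 7 alternatives, as were both counts at 1.5-fold. The FACIT median was -0.043 after removal of the lowess curve, -0.060 with the higher floor, which left 2 chains, and -0.070 with no floor. The median of the other chains was 0.031 with the higher floor, and the network median 0.020 with no floor, where 6 dimmer chains enter. The remaining medians moved by less than 0.055. Of 220 values of single chains under 5 ways of scaling or summarising, 212 moved by less than that and 8 by more, all 8 under the lowess curve. Many of the 212 could not have moved that far, so their number is no measure of stability. Centring shifted every chain by the same 0.006, and the mean over clusters could change Col6a5 and Col6a6 alone. For 4 chains the sign was not the same throughout, Col9a3 and the 3 with equal values.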
